A study of Mus musculus with 4 samples.

Results

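Gluconeogenesis and the fasting response to glucocorticoids were followed here through 10 genes of mouse liver: Pck1, G6pc, Fbp1, Pcx, Slc37a4, Ppargc1a, Klf15, Gcgr, Fkbp5 and Tsc22d3. They were chosen by name, and their transcripts were found by Entrez gene number. All 10 were present among the 17543 genes of the transcript tables, and all 10 had enough reads to be tested. RNA sequencing was done on liver tissue of C57BL/6 mice. The Ezh2 K307R group, Ezh2(K307R/K307R), carried the K307R point mutation on both copies of Ezh2, the gene for the histone H3 lysine 27 methyltransferase of Polycomb repressive complex PRC2, and the wild-type (WT) group carried none. Each genotype had 2 liver samples, replicates 1 and 2, called livers below. The labels give no treatment, age, sex, feeding state or hour of collection. Nor do they say whether the samples of a genotype came from separate animals, so a p-value speaks only for the spread of these 4 samples. The test used pools that spread in part across genes. The comparison asks whether the transcripts of hepatic glucose output differ between the genotypes.

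Gluconeogenesis makes glucose from lactate, amino acids and glycerol when food is absent, and in the liver it ends with the release of free glucose into the blood. Glucagon, through its receptor and cyclic AMP, and glucocorticoids, through the glucocorticoid receptor, raise the transcription of its enzymes in the fasted state, while insulin lowers it. Many of these transcripts also follow the time of day. In bulk tissue fewer cells of a type and less RNA per cell cannot be told apart.

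Depth was 18602928 and 18749610 expected counts in the K307R livers, against 19289715 and 20044832 in the WT livers. A gene was called where edgeR's quasi-likelihood test gave it an adjusted p (Benjamini-Hochberg) below 0.05. Of 12837 genes tested, 178 were called higher (1.39%) and 189 lower (1.47%) in the K307R livers, 2.86% in all. Ezh2 was at 3.45 and 2.56 CPM (read counts scaled to a common library size) in the K307R livers and at 3.36 and 3.93 CPM in the WT livers, and gene counts do not show a point mutation. The hepatocyte marker genes, Alb and Apoa1 among them, summed to between 146500 and 148080 CPM in the K307R livers and to between 157380 and 157630 CPM in the WT livers. Of these 10 genes 0 were called and 0 had an unadjusted edgeR p under 0.05. Alb, the highest, overlapped between the genotypes, at 98489 and 102760 CPM in K307R and 101890 and 105310 CPM in WT. The marker lists of adrenal cortex, kidney and pancreas summed to at most 6.37 CPM in a K307R liver and 17.0 CPM in a WT liver, and 4 of 8, 6 of 10 and 8 of 10 of their genes were at 0 in every liver. Xist, the X-linked RNA of female cells, had 6172 and 11201 reads in the K307R livers and 6 and 6 reads in the WT livers, and the Y-linked Ddx3y had 0 and 0 reads against 1168 and 1108. Sex-chromosome pattern and genotype therefore cannot be told apart in any result below.

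The starts of the 3 genes on which the results turn most are shown first, with the 250 bases before the RefSeq start (GRCm38.p6, plus strand, 5′ to 3′). Pck1 had the highest level, G6pc the highest fold change and Slc37a4 the lowest. Capitals mark the core letters of a cyclic AMP response element, CGTCA, on either strand (TGACG where it lies on the minus strand).
Pck1, chr2:173152823-173153072: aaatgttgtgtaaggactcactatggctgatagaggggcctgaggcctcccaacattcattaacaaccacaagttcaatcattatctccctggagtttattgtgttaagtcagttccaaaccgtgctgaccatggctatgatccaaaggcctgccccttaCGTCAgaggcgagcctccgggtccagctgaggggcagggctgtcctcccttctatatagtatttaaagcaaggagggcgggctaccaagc
G6pc, chr11:101367466-101367715: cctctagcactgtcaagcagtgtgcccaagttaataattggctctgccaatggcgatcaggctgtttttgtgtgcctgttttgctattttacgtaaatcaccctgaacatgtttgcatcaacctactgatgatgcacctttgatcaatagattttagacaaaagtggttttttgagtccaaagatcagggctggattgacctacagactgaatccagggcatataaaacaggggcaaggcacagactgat
Slc37a4, chr9:44396696-44396945: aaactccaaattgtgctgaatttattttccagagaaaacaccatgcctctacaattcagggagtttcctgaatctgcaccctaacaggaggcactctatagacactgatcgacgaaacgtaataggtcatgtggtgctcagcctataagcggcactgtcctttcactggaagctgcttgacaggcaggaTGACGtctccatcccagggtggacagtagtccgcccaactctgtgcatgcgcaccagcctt

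In Pck1 the letters lie at positions -90 to -86 from the start. Background from the rat gene places a cyclic AMP response element in this proximal promoter. The G6pc window holds no CGTCA, which says nothing of elements with other letters in this window or of elements elsewhere. The Slc37a4 window printed holds it on the minus strand at -61 to -57. Another Slc37a4 window, which overlaps this one, holds the same site at -214 to -210 from its own start. It also holds CGTCA on the plus strand at -82 to -78. The window counts below therefore include the shared site in both windows. Only these 250 bases before each start were searched, and only for the exact letters given. Variant forms of an element inside a window were not counted. Among the 15 RefSeq windows of the 10 genes, 6 windows of 5 genes (Klf15, Pck1, Ppargc1a, Slc37a4 and Tsc22d3) hold CGTCA on either strand, and 17.8% of all 32851 windows do. The full palindrome, CGTCA preceded directly by TGA, is in 0 of the 15 windows and in 1.55% of all. AGAACA, an arm of the glucocorticoid receptor's element, is in 1 window of Tsc22d3 (16.1% of all windows), and the paired arms AGAACA and TGTTCT with 3 bases between them are in 0 of the 15 (0.00913% of all). The forkhead letters GTAAACA are in 0 of the 15 (3.17%), and the E-box CACGTG, the element of the clock activators, is in 1 window each of Fkbp5, Klf15 and Pcx (6.02%). Because the motif's arms and core are parts of the longer palindromes, these counts overlap. A match is a description of the letters and not a binding site.

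By edgeR's quasi-likelihood test none of the 10 genes was called different between the genotypes. The counts were 0 of 10 higher, where 1.39% of all genes were called higher, and 0 of 10 lower, where 1.47% were, 2.86% in all. At the same time 1 of 10, Slc37a4, had an unadjusted p under 0.05, where 16.8% of all genes did. DESeq2 called 1 of 10, Slc37a4, lower, where it called 3.01% of all genes lower, 2.94% higher and 5.95% in all. Limma-voom called 0 of 10, where it called 1.19% of all genes higher, 1.11% lower and 2.3% in all. In CPM the genotypes did not overlap in 4 of the 10 genes. The K307R livers lay above in 1 (G6pc) and below in 3 (Slc37a4, Ppargc1a and Klf15). Of all genes tested 25.2% lay above, 23.4% below and 48.6% did either. The log2 ratio below is the fitted log2 fold change of K307R over WT, with the edgeR adjusted p beside it. Its median over the 10 was -0.21, beside 0.01 over all genes tested. Together they held 0.457% and 0.505% of the scaled counts in the K307R livers and 0.532% and 0.445% in the WT livers, so the summed level of the group overlapped between the genotypes.

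**Figure D1:**
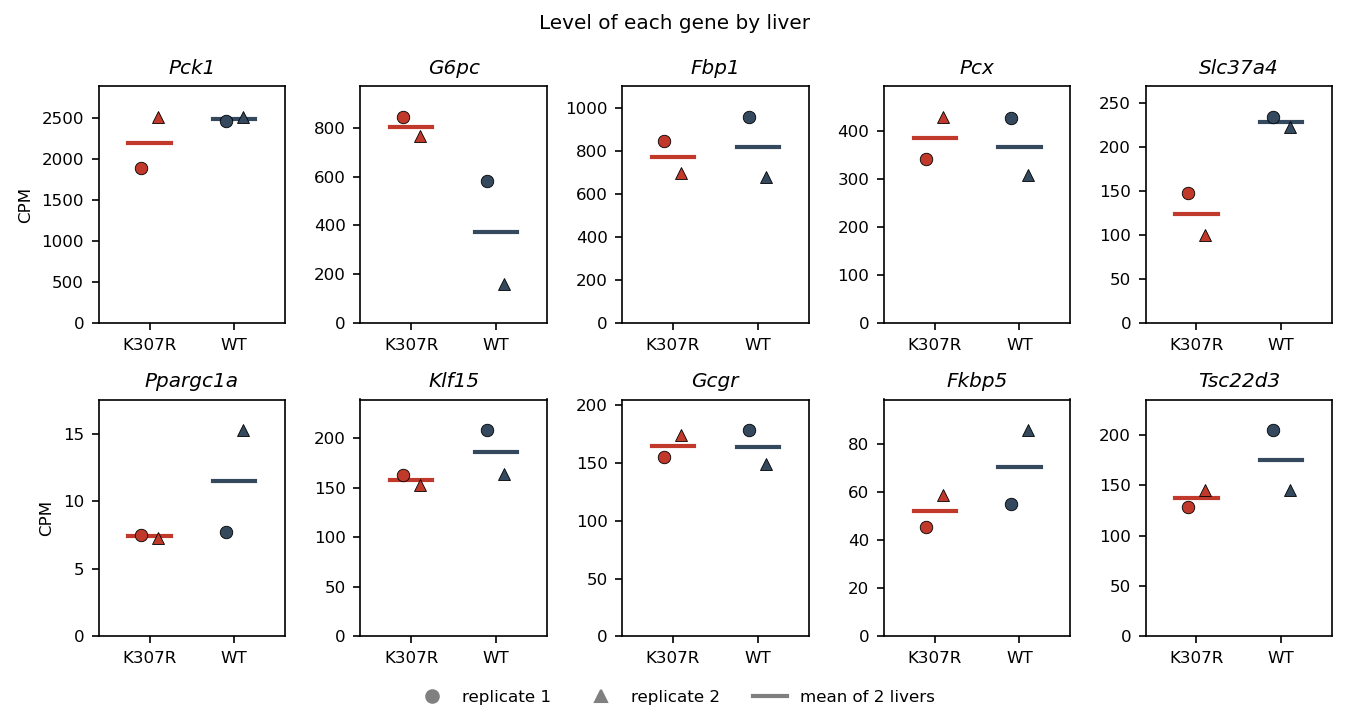
Level of each of the 10 genes in CPM (y axes from 0, one scale per gene) in the 2 K307R livers and the 2 WT livers. Circles are replicate 1, triangles replicate 2 and bars the mean of 2 livers. Slc37a4 lies lower in both K307R livers (148 and 99.5 CPM) than in both WT livers (234 and 223 CPM), and the WT livers stand far apart in G6pc (582 and 162 CPM).

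Pcx (Entrez gene 18563, chromosome 19, bases 4510472 to 4621752, GRCm38.p6 as for all genes here) encodes pyruvate carboxylase, the mitochondrial enzyme that turns pyruvate into oxaloacetate and so opens the pathway. Its level was 342 and 430 CPM in the K307R livers and 429 and 308 CPM in the WT livers. The ranges overlapped almost entirely, and the log2 ratio was 0.07 (SE 0.26; 95% interval -0.54 to 0.68; edgeR adjusted p = 0.929). Pck1 (18534, chromosome 2, 173153073 to 173159274) encodes the cytosolic phosphoenolpyruvate carboxykinase, the next step and the best-known transcriptional target of glucagon in the liver. It was at 1891 and 2515 CPM in the K307R livers, against 2465 and 2516 CPM in the WT livers. K307R replicate 1 was the low sample, and the other K307R liver lay within the WT range. This gave a log2 ratio of -0.18 (SE 0.27, 95% interval -0.80 to 0.44, edgeR adjusted p = 0.799).

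Fbp1 (14121, chromosome 13, 62864753 to 62888298) encodes fructose-1,6-bisphosphatase, which opposes phosphofructokinase. It was at 844 and 697 CPM in the K307R livers and at 957 and 678 CPM in the WT livers, so the K307R pair lay within the WT range. Its log2 ratio was -0.08 (SE 0.27, 95% interval -0.72 to 0.55, edgeR adjusted p = 0.913). For Pcx, Pck1 and Fbp1 the intervals lay within a 2-fold difference in either direction, and differences inside them were not detectable with 2 livers a genotype.

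The last step takes glucose 6-phosphate into the endoplasmic reticulum and splits it there. The transporter is encoded by Slc37a4 (14385, chromosome 9, 44396946 to 44402966) and the catalytic subunit of glucose-6-phosphatase by G6pc (14377, chromosome 11, 101367716 to 101377903), and loss of either causes glycogen storage disease type I in people. The estimates for these partners had opposite signs. Slc37a4 was at 148 and 99.5 CPM in the K307R livers, against 234 and 223 CPM in the WT livers, with both K307R livers below both WT livers. It averaged 124 ± 34.1 CPM in K307R and 228 ± 8.04 CPM in WT (SD, n = 2 each). The fit gave K307R 0.541 times the WT level (95% interval 0.363 to 0.807), a log2 ratio of -0.89 (SE 0.25). Its unadjusted p was 0.0077 and its edgeR adjusted p 0.118. DESeq2 gave -0.89 with an adjusted p of 0.0159, and limma-voom gave -0.91 with 0.106. With a liver left out the log2 ratio ran from -1.20 (without K307R replicate 1) to -0.63 (without K307R replicate 2), and none of these 4 fits called it (edgeR adjusted p from 0.0815 to 0.438).

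G6pc was at 846 and 766 CPM in the K307R livers, against 582 and 162 CPM in the WT livers. The K307R livers were close to each other and above both WT livers, and WT replicate 2 stood 3.60-fold below WT replicate 1. The mean was 806 ± 56.5 CPM in K307R and 372 ± 297 CPM in WT (SD, n = 2 each). From these the log2 ratio came to 1.12 (SE 0.51; 95% interval -0.07 to 2.31; edgeR adjusted p = 0.326). This value rested on the WT livers. Without WT replicate 1 it was 2.32 and passed the test (edgeR adjusted p = 7.06e-04), in a fit that called 2.45% of all genes higher, 2.95% lower and 5.4% in all. Without WT replicate 2 it was 0.465 (edgeR adjusted p = 0.522). G6pc3, the widely expressed relative of G6pc, was at 6.58 and 5.78 CPM in the K307R livers and at 5.55 and 7.86 CPM in the WT livers (log2 ratio -0.12, edgeR adjusted p = 0.873), and Slc2a2, the glucose transporter of the hepatocyte membrane, had a log2 ratio of -0.30 (0.649). Both were chosen for their roles after their values were seen.

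**Figure D2:**
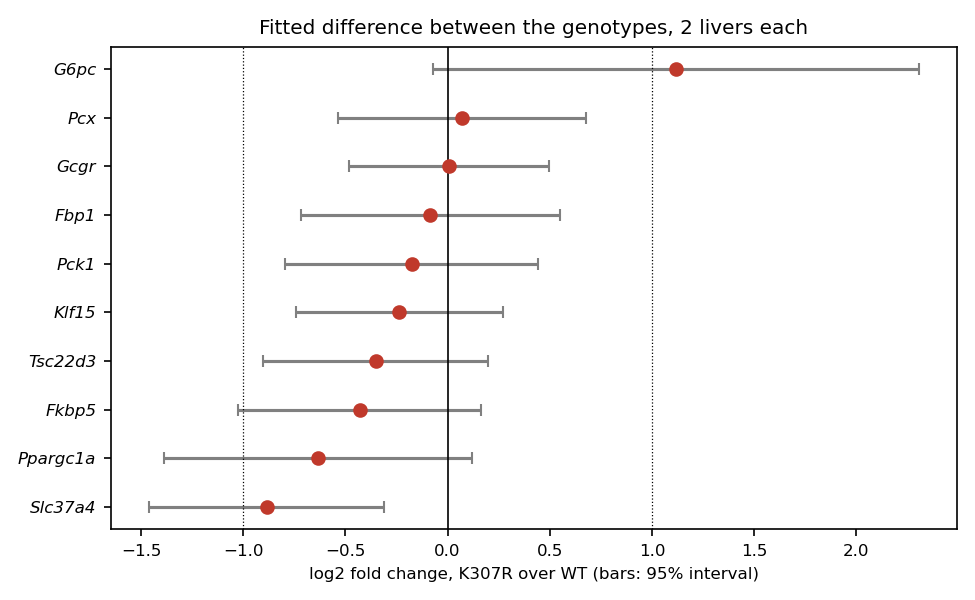
Fitted log2 fold change of each gene, K307R over WT (x axis), with its 95% interval; dotted lines mark a 2-fold difference. The intervals of 9 of the 10 genes cross 0, that of Slc37a4 (-1.46 to -0.31) does not before adjustment for the number of genes, and that of G6pc (-0.07 to 2.31) is the widest.

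Gcgr (14527, chromosome 11, 120529185 to 120538989) encodes the glucagon receptor, the hepatocyte's sensor of the fasting hormone. It was at 155 and 174 CPM in the K307R livers and at 178 and 149 CPM in the WT livers, with overlapping ranges. Its log2 ratio was 0.01 (SE 0.21; 95% interval -0.48 to 0.50; edgeR adjusted p = 0.992). Ppargc1a (19017, chromosome 5, 51454249 to 52115853) encodes PGC-1alpha, a coactivator that glucagon induces and that drives Pck1 and G6pc with FOXO1 and HNF4A. It was a low transcript, with 142 and 143 reads in the K307R livers and 134 and 322 reads in the WT livers. In CPM these were 7.53 and 7.31 against 7.75 and 15.2, so the K307R livers and WT replicate 1 were alike and WT replicate 2 alone was high. In FPKM, defined below, WT replicate 1 was the lowest liver, so the genotypes overlapped. The counts sum a coding and a non-coding transcript, given apart below. On these summed counts the log2 ratio was -0.64 (SE 0.33, 95% interval -1.39 to 0.12, edgeR adjusted p = 0.386). Without WT replicate 1 it was -1.04 and passed the test (edgeR adjusted p = 0.0452), and without WT replicate 2 it was -0.07 (0.953).

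Klf15 (66277, chromosome 6, 90461043 to 90491803) encodes a Krüppel-like factor that glucocorticoids and fasting induce and that promotes the breakdown of amino acids for gluconeogenesis. It was at 163 and 152 CPM in the K307R livers and at 208 and 164 CPM in the WT livers. The K307R livers lay below both WT livers, the nearest pair by little. The fitted log2 ratio was -0.24 (SE 0.22, 95% interval -0.74 to 0.27, edgeR adjusted p = 0.651).

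Fkbp5 and Tsc22d3 are widely used indicators of glucocorticoid receptor activity. Fkbp5 (14229, chromosome 17, 28398753 to 28486149) encodes FKBP51, a cochaperone that lowers the receptor's affinity for hormone. It was at 45.6 and 58.9 CPM in the K307R livers and at 55.0 and 85.7 CPM in the WT livers, with WT replicate 2 highest and the other WT liver between the K307R values. Fitted as a log2 ratio this was -0.43 (SE 0.26, 95% interval -1.02 to 0.16, edgeR adjusted p = 0.459). Tsc22d3 (14605, bases 140539528 to 140600522) encodes GILZ, a leucine zipper protein that mediates anti-inflammatory effects of glucocorticoids, and it is the 1 gene of the 10 on the X chromosome. It was at 128 and 146 CPM in the K307R livers and at 204 and 145 CPM in the WT livers. Here WT replicate 1 was the high sample, and WT replicate 2 lay within the K307R range. In FPKM the K307R livers (65.2 and 76.2) lay below both WT livers (91.9 and 76.5), the nearest pair by little. The log2 ratio came to -0.35 (SE 0.24, 95% interval -0.90 to 0.20, edgeR adjusted p = 0.514). The WT livers thus took different places in these genes, replicate 2 being the higher in Fkbp5 and Ppargc1a and replicate 1 in Tsc22d3, Klf15 and G6pc.

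**Figure D3:**
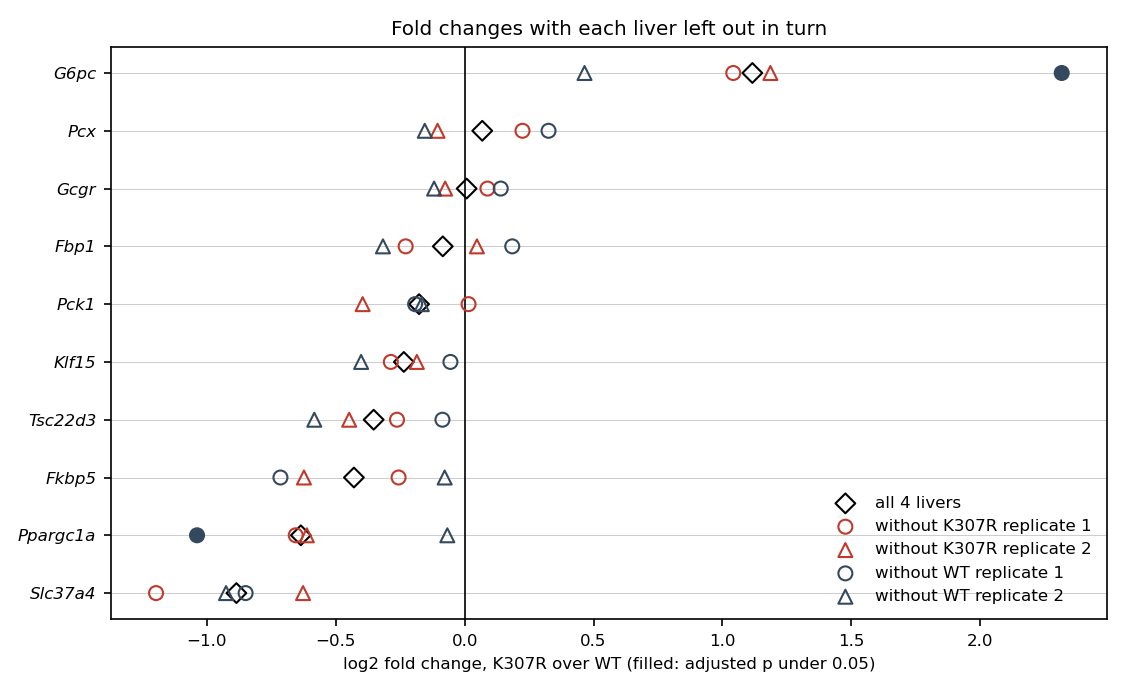
Log2 fold change of each gene, K307R over WT (x axis), with all 4 livers (diamonds) and with each liver left out (circles and triangles); filled symbols passed an adjusted p of 0.05. G6pc (2.32) and Ppargc1a (-1.04) passed without WT replicate 1, no other fit drawn passed, and Slc37a4 stayed between -1.20 and -0.63.

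Levels between genes were compared per length, in FPKM (fragments per kilobase of transcript, scaled to library depth), as the authors scaled them. Pck1 was the highest in both genotypes, at 862 ± 190 FPKM in K307R and 922 ± 120 FPKM in WT (SD, n = 2 each), followed by Fbp1 at 537 ± 61.2 and 533 ± 68.2 FPKM. Next came G6pc, at 362 ± 17.8 FPKM in K307R and 151 ± 108 FPKM in WT. Those first 3 places were clear of each other in K307R, whereas in WT the G6pc range reached down below the levels of Slc37a4 and Pcx. Slc37a4 took place 8 in K307R, at 60.7 ± 15.6 FPKM, and place 4 in WT, at 106 ± 8.48 FPKM. Pcx (94.9 FPKM in K307R, 84.6 in WT), Gcgr (87.7 and 82.0), Tsc22d3 (70.7 and 84.2) and Klf15 (70.4 and 77.9) held the middle. In K307R the ranges of Pcx and Gcgr overlapped, as did those of Tsc22d3, Klf15 and Slc37a4. In WT those of Pcx, Tsc22d3 and Gcgr overlapped, and Klf15 overlapped Pcx and Tsc22d3. Fkbp5, at 13.7 ± 2.74 FPKM in K307R and 17.8 ± 7.40 FPKM in WT, and Ppargc1a, at 1.17 ± 0.00707 and 1.76 ± 0.990 FPKM, were the lowest.

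Several RefSeq transcripts carried reads in 4 of the genes, and their shares are RSEM's estimates. Slc37a4 came mostly from a single transcript, NM_001293631, with 95.6% and 92.5% of the gene's expected counts in the K307R livers and 95.6% and 94.1% in the WT livers. The difference in level lay in that transcript, at 2663 and 1799 expected counts against 3868 and 4426. Tsc22d3 came mostly from NM_010286, with 91.8% and 89.8% in K307R and 91.3% and 84.4% in WT. Its next transcript, NM_001077364, held 7.27% and 9.36% in K307R and 7.98% and 14.4% in WT, and the shares overlapped. Pcx was divided between NM_001162946 (81.8% and 65.7% in K307R, 58.3% and 77.6% in WT) and NM_008797, which have nearly the same length. That split varied as much within a genotype as between them. In Ppargc1a the non-coding NR_132764 was given 44.4% and 0% of the counts in K307R and 0% and 56.3% in WT. This all-or-nothing pattern across livers at these low counts did not follow genotype. The coding NM_008904 had 79 and 143 expected counts in K307R and 134 and 141 in WT, so the genotypes overlapped in it. By these estimates the higher count of WT replicate 2 lay in NR_132764 (181 expected counts).

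**Figure D4:**
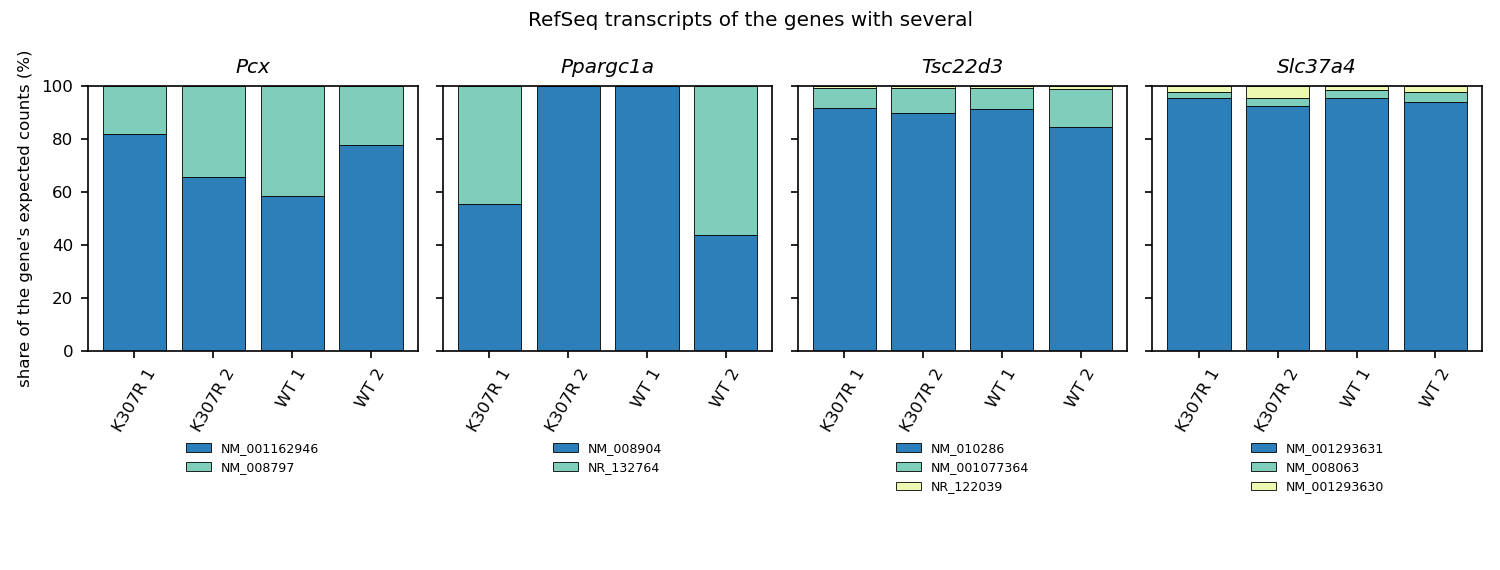
Share of each gene's expected counts (y axis, percent) given to each RefSeq transcript in every liver, for the genes with several. Slc37a4 and Tsc22d3 are carried by a main transcript in every liver, with at least 92.5% and 84.4%, while the shares in Pcx and Ppargc1a differ between livers of the same genotype.

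The genes around the 10 were read from 6 lists of the pathway, which share some members and together held 140 tested genes. The lists, like the 10 genes, were chosen with earlier results of these data known. Of the 140 genes, 5 were called higher and 3 lower, 5.71% beside 2.86% of all genes. By direction, 1.39% of all genes were called higher and 1.47% lower, the background for the calls in each list below. Among 26 tested genes, of steps that gluconeogenesis shares with glycolysis, of carriers and of nearby enzymes, 0 rose and 1 fell. Pck2, G6pc3, Got1, Got2, Gpt, Gpt2, Gk and Gpd1 are among the nearby enzymes and are not shared steps. The median log2 ratio of the list was -0.25, beside 0.01 over all genes tested. The K307R livers lay above both WT livers in 5 of the 26 and below them in 10, where 25.2% and 23.4% of all genes did. By edgeR 7 of the 26 had an unadjusted p under 0.05 (16.8% of all genes did). The gene that fell was Gpi1, glucose-6-phosphate isomerase, at 226 and 200 CPM in the K307R livers against 557 and 520 CPM in the WT livers (log2 ratio -1.34, edgeR adjusted p = 0.0271). The call was lost without K307R replicate 1 (-1.43, edgeR adjusted p = 0.0741) or replicate 2 (-1.25, 0.12). The aldolase gene Aldoa stood at a log2 ratio of -0.92 (edgeR adjusted p = 0.0667), Gapdh at -0.92 (0.123) and the enolase gene Eno1 at -0.66 (0.216).

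Among 37 tested regulators of gluconeogenesis 1 rose and 0 fell, with a median of 0.13. The K307R livers lay above both WT livers in 17 of the 37 and below them in 6, where 25.2% and 23.4% of all genes did. By edgeR 11 of the 37 had an unadjusted p under 0.05 (16.8% of all genes did). Irs2, the insulin receptor substrate that fasting and FOXO1 induce in the liver, was at 17.5 and 41.6 CPM in the K307R livers against 4.74 and 2.08 CPM in the WT livers (log2 ratio 3.13, edgeR adjusted p = 0.0222). It was 3.82 without WT replicate 1 and 2.37 without K307R replicate 2, with the call kept, and the call was lost on log2(FPKM + 1) (limma adjusted p = 0.0566). Cebpb, a basic leucine zipper activator of Pck1, was at 32.6 and 55.6 CPM in K307R and at 105 and 108 CPM in WT, just outside the threshold (-1.27, edgeR adjusted p = 0.0515). It was called lower with RLE scaling (0.0487), upper-quartile scaling (0.0481), no filter (0.00578), DESeq2 (5.19e-04) and in 3 of the 4 fits with a liver left out, and without K307R replicate 1 it was -0.93 (edgeR adjusted p = 0.113). Crtc2, the coactivator of CREB that glucagon releases into the nucleus, was at a log2 ratio of 0.78 (edgeR adjusted p = 0.0802), and Irs1 at 1.25 (0.0803). For 3 transcription factors chosen for their roles after their values were seen, the log2 ratio was -0.55 for Foxo1 (edgeR adjusted p = 0.217), 0.22 for Creb1 (0.633) and 0.29 for Hnf4a (0.636).

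Among 33 tested targets of fasting and glucagon 2 rose and 1 fell, with a median of 0.04. The K307R livers lay above both WT livers in 8 of the 33 and below them in 8, where 25.2% and 23.4% of all genes did. By edgeR 10 of the 33 had an unadjusted p under 0.05 (16.8% of all genes did). Pdk4, a kinase that shuts off pyruvate dehydrogenase and so spares pyruvate for Pcx, was at 10.6 and 27.7 CPM in the K307R livers against 2.66 and 1.94 CPM in the WT livers (log2 ratio 3.06, edgeR adjusted p = 0.0189). Oat, ornithine aminotransferase of amino acid breakdown, was at 352 and 695 CPM against 158 and 84.4 CPM (2.11, edgeR adjusted p = 0.0426). Lpin1, a phosphatidate phosphatase and coactivator that fasting induces, went the other way, at 100.5 and 94.5 CPM against 311 and 578 CPM (-2.19, edgeR adjusted p = 0.0172). Slc38a2, an amino acid transporter, was at a log2 ratio of -0.91 (0.0764). Without K307R replicate 2 the values were 2.21 for Pdk4 (edgeR adjusted p = 0.0266), 1.54 for Oat (0.0877) and -2.14 for Lpin1 (0.053). On log2(FPKM + 1) all 3 calls were lost (limma adjusted p from 0.0566 to 0.0749), and limma-voom did not call Pdk4 (0.0532).

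Among 28 tested genes that glucocorticoids are known to induce 2 rose and 2 fell, with a median of -0.25. By edgeR 10 of the 28 had an unadjusted p under 0.05, where 16.8% of all genes did. That was not particular to this list. The shared-step list (7 of 26), the regulators (11 of 37), the fasting targets (10 of 33) and glucagon receptor signalling (5 of 18) were also above that share. The K307R livers lay above both WT livers in 4 of the 28 and below them in 10, where 25.2% and 23.4% of all genes did. Pdk4 and Lpin1 belong to this list as well. Nfil3, a repressor that is also a clock output gene, was at 31.1 and 48.4 CPM in the K307R livers against 7.35 and 7.43 CPM in the WT livers (log2 ratio 2.43, edgeR adjusted p = 0.00515). Dusp1, a phosphatase that silences MAP kinases, was at 18.1 and 13.9 CPM against 33.5 and 49.8 CPM (-1.38, edgeR adjusted p = 0.0364), and its call was lost without K307R replicate 2 (-1.20, 0.122), with total-count scaling (0.068) and on log2(FPKM + 1) (0.11). Tat and Tdo2, liver enzymes of amino acid breakdown that are classical glucocorticoid targets, had log2 ratios of -0.45 (edgeR adjusted p = 0.486) and -0.52 (0.51). Sgk1, a kinase, and Igfbp1, a binding protein of insulin-like growth factors, were at 0.12 (edgeR adjusted p = 0.902) and 0.44 (0.601). These 4 genes and Per1 were chosen for their roles after their values were seen. By edgeR none of these 4 had an unadjusted p under 0.05. Beside Per1 and the called genes, those of the list that did were Gadd45g, Mt2, Mt1, Ddit4 and Rgs3. Their log2 ratios were -1.84 (edgeR adjusted p = 0.0677), -1.72 (0.153), -1.37 (0.145), -1.69 (0.205) and 1.13 (0.118). Per1, a clock gene that the receptor also induces, was at 21.2 and 40.0 CPM in the K307R livers and at 44.9 and 67.2 CPM in the WT livers (-0.87, edgeR adjusted p = 0.231).

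Of 12 tested genes of the glucocorticoid receptor, its chaperones and hormone metabolism, 0 passed the test in either direction, 1 had an unadjusted p under 0.05 (16.8% of all genes did), and the median was 0.09. Nr3c1, the receptor itself, chosen for its role after its values were seen, was at 89.8 and 75.0 CPM in the K307R livers and at 89.9 and 67.2 CPM in the WT livers (log2 ratio 0.07, edgeR adjusted p = 0.911). Hsd11b1, which regenerates active glucocorticoid in the liver, was at 642 and 509 CPM in K307R and at 614 and 369 CPM in WT (0.23, edgeR adjusted p = 0.771). Srd5a1, a 5-alpha-reductase of steroid clearance, was at 48.3 and 67.5 CPM in K307R and at 252 and 87.9 CPM in WT (-1.55, edgeR adjusted p = 0.125), with WT replicate 1 far above the other 3 livers. Without WT replicate 1 it was -0.60 (edgeR adjusted p = 0.312). It was called lower without WT replicate 2 (-2.13, edgeR adjusted p = 3.99e-04), with no filter on low counts (0.0154) and by DESeq2 (0.0034). Nr3c2, the mineralocorticoid receptor, was at -0.51 (edgeR adjusted p = 0.378) and the steroid reductase gene Akr1d1 at 0.20 (0.707). Among 18 tested genes of glucagon receptor signalling 1 rose and 0 fell, with a median of 0.20. The K307R livers lay above both WT livers in 7 of the 18 and below them in 3, where 25.2% and 23.4% of all genes did. By edgeR 5 of the 18 had an unadjusted p under 0.05. Pde4b, a phosphodiesterase that degrades cyclic AMP, was at 28.9 and 21.4 CPM in the K307R livers against 11.9 and 7.15 CPM in the WT livers (log2 ratio 1.40, edgeR adjusted p = 0.0482). This call was lost without WT replicate 2 (1.07, edgeR adjusted p = 0.0558) or K307R replicate 1 (1.17, 0.133), with RLE scaling (0.0509), with a filter at a mean of 1 CPM (0.0529) and with limma-voom (0.0528). Ramp1, a receptor partner protein, was at 2.02 (edgeR adjusted p = 0.0641) and the adrenergic receptor gene Adra1b at 0.56 (0.202).

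**Figure D5:**
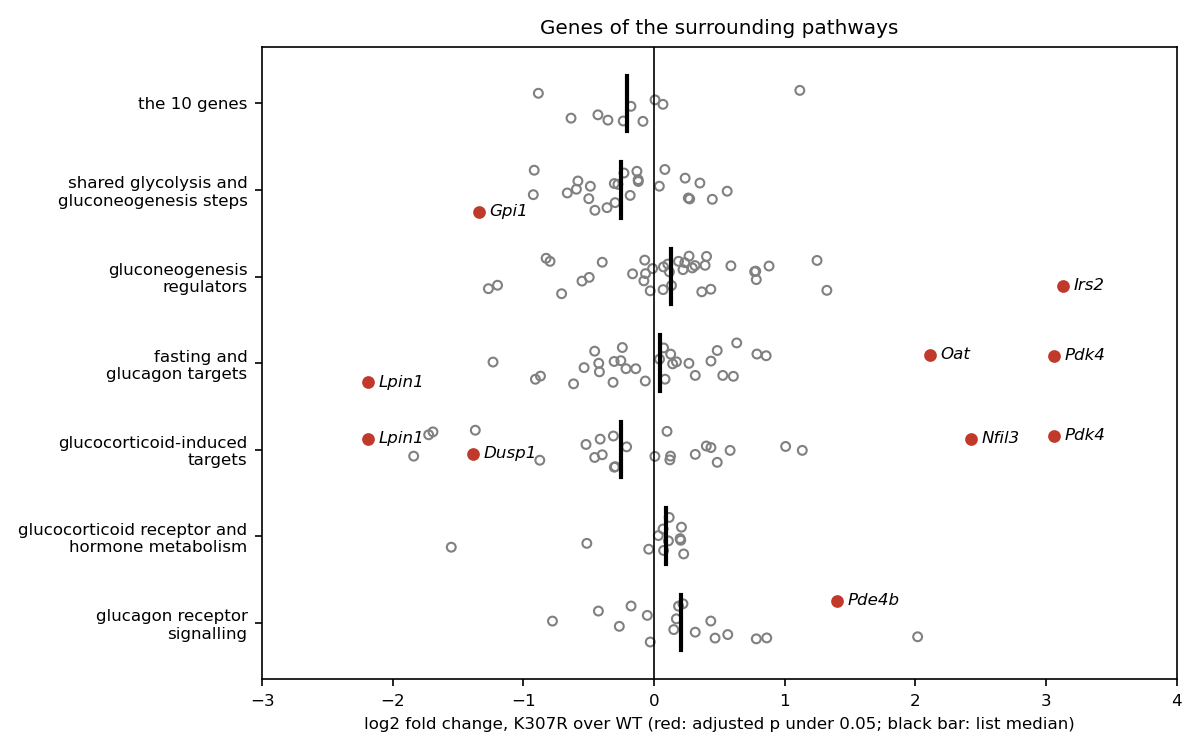
Log2 fold change, K307R over WT (x axis), of every tested gene in the 10-gene set and the 6 lists around it (rows); red points passed an adjusted p of 0.05 and black bars are list medians, which lie between -0.25 and 0.20. The 8 called genes are named, and Lpin1 and Pdk4 appear in each of the lists that hold them.

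Clock genes and markers of other liver cells were read in the same libraries. Of 17 clock genes, 5 rose and 3 fell, where 1.39% of all genes were called higher and 1.47% lower. By edgeR 15 of the 17 had an unadjusted p under 0.05 (16.8% of all genes did). The K307R livers lay above both WT livers in 5 and below them in 10, where 25.2% and 23.4% of all genes did. The clock pattern thus went with genotype, and the labels give no hour of collection. Arntl, the activator also called Bmal1, was at 12.3 and 23.7 CPM in the K307R livers against 1.10 and 1.18 CPM in the WT livers (log2 ratio 3.97, edgeR adjusted p = 0.0034). The 10 Kupffer cell markers summed to 462 and 311 CPM in K307R and to 260 and 301 CPM in WT, with 0 calls. The 10 stellate cell markers summed to 349 and 270 CPM and to 164 and 287 CPM, with 2 higher (Dcn and Colec11) and 1 lower (Col1a1). These sums hide shifts of single genes. The K307R livers lay above both WT livers in 4 Kupffer markers and below in 0, and above in 5 stellate markers and below in 3. By edgeR 4 Kupffer and 8 stellate markers had an unadjusted p under 0.05. Endothelial markers summed to 151 and 168 CPM in K307R and to 105 and 147 CPM in WT, bile duct markers to 51.2 and 87.5 CPM and to 93.5 and 76.3 CPM, and lymphocyte markers to 15.4 and 10.1 CPM and to 10.4 and 14.3 CPM, with 0 calls by edgeR in each. The part of these shifts in the values of the 10 genes was not tested.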

How the data were processed

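RNA of 4 mouse liver samples was measured, 2 of each genotype, grouped by the labels' titles. Per the submitters' processing notes, the tools were HISAT, Bowtie2 and RSEM and the build was mm10, with no version. No source states the strand setting, so overlapping genes are uncertain. Expected counts, RSEM's estimated counts per RefSeq transcript, were deposited without normalization, per the file headers. FPKM were scaled by the authors to length and depth, per the file headers.

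Expected counts were summed per Entrez gene and rounded. Symbols came from RefSeq's GRCm38.p6 table (the assembly of mm10) and named 17502 of 17543 genes. The other 41 stayed in under their numbers. Genotypes were compared with the quasi-likelihood test of edgeR 4.0.16 (R 4.3.3) with TMM factors, filterByExpr, genotype as the only term, 2 residual degrees of freedom and Benjamini-Hochberg adjustment over 12837 genes. CPM use TMM library sizes. Each standard error is the fold change divided by the root of its F value. Alternatives used DESeq2 1.42.0, limma 3.58.1, other scalings and filters, FPKM on a log2 scale with pseudocounts of 1 and 0.1 (limma; only genes averaging 1 FPKM or more in either genotype), a replicate block and leaving out each liver, where the lone liver is assumed to vary as the others do. No library was a repeat of another: replicates were further apart than counting noise allows, with a chi-square of 48.4 a gene in K307R and 88.5 in WT.

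The 10 genes and the lists were chosen with earlier results of these data known. Beside the 10, the text names every called gene of the 6 pathway lists and, to fill up to 4 a list, those with the smallest p, with exceptions stated. Of 279 list entries, 1 matched no symbol. Promoter sequences are RefSeq's, and each of the 10 genes matched.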

Additional observations from a re-analysis of the deposited data

How the results depend on the processing

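Of the 10 genes, 7 were not called in any of the 14 other settings, and 6 kept their sign in all of them. Slc37a4 was called with DESeq2 (-0.89). With a liver left out, the log2 fold changes ran from -0.40 to 0.015 for Pck1, 0.465 to 2.32 for G6pc, -0.32 to 0.18 for Fbp1, -0.15 to 0.33 for Pcx, -1.20 to -0.63 for Slc37a4, -1.04 to -0.067 for Ppargc1a, -0.12 to 0.14 for Gcgr, -0.40 to -0.06 for Klf15, -0.71 to -0.08 for Fkbp5, -0.58 to -0.09 for Tsc22d3 and -0.098 to 0.64 for Hsd11b1. Values near 0 changed sign for Fbp1 with total-count scaling (0.0096) and on log2(FPKM + 1) and log2(FPKM + 0.1) (0.012 in both), and for Gcgr with RLE scaling (-0.0032) and DESeq2 (-0.0031). Between 0 and 1 of the 10 was called higher and between 0 and 1 lower with a liver left out, and 1 lower with DESeq2. Over all genes, 378 were higher and 386 lower with DESeq2, 94 and 69 on log2(FPKM + 1), 91 and 70 on log2(FPKM + 0.1), 410 and 419 with no filter, 188 and 124 with total-count scaling (60.3% higher, against 48.5%), and 117 to 327 higher and 94 to 393 lower with a liver left out. In the 6 pathway lists, 11 were higher and 11 lower with DESeq2, 1 and 1 on log2(FPKM + 1), 2 and 1 on log2(FPKM + 0.1), 10 and 13 with no filter, 3 higher with limma-voom, and 4 to 9 higher and 1 to 9 lower with a liver left out. The replicate numbers name samples only: same-numbered livers did not deviate together (correlation of deviations across genes -0.0027), and with the replicate block 166 genes were higher and 181 lower, 0 of the 10 genes were called, and 5 pathway genes were lower. The block lost the calls of Oat (adjusted p = 0.0743) and Dusp1 (0.0565) and added that of Cebpb (0.0414), all by edgeR. The cause of these differences was not tested. With 2 livers a genotype, the 95% intervals of the 10 genes reached a median of 0.60 on the log2 scale to either side, and Ppargc1a, the least deeply counted, had 134 to 322 reads a liver.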

Other observations

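The ratio of G6pc to Slc37a4, the catalytic subunit over the transporter of the glucose-6-phosphatase system, was formed after the values of both genes were seen and is given as a description. On the FPKM scale, which corrects for transcript length, it was 5.23 and 7.05 in the K307R livers and 2.27 and 0.664 in the WT livers. Both K307R livers were above both WT livers. This had to follow, since on this scale both K307R livers already lay above both WT livers in G6pc and below them in Slc37a4. With 2 livers against 2 an exact two-sided permutation test cannot give a p below 0.333, so no test was made.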
